A study of Homo sapiens with 12 samples.

Results

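SKBR3 is an established human breast cancer cell line in which the gene for the receptor HER2 (ERBB2) is amplified. Messenger RNA was compared between SKBR3 cells that had received GSK126 alone and SKBR3 cells that had received GSK126 and then, on top of it, lapatinib. The comparison covers 6 of the 12 libraries of the series, 3 for each of the 2 groups. Both groups were kept in 5 µM GSK126 from day -6. On day 0 one group received 100 nM lapatinib together with fresh GSK126, the other GSK126 without lapatinib, and RNA was taken 24 h later, on day 1. GSK126 is thus shared by both groups, and only lapatinib differs between them. The other 6 libraries, 3 with DMSO throughout and 3 with 100 nM lapatinib for 24 h after DMSO, serve here only to show how lapatinib acted without GSK126. All samples come from 1 cell line, and whether its replicates were grown separately is not in the labels, so p-values cover the spread between these libraries, which may be technical.

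Lapatinib blocks the kinase activity of EGFR and HER2, whose signals run through the RAS and ERK cascade and through PI3K and AKT. These signals keep cyclin D and CDK activity high, which holds the RB protein phosphorylated and lets E2F factors switch on the genes of DNA replication. Mitotic genes follow later under MYBL2 and FOXM1, and in arrested cells the DREAM complex of RB relatives keeps both sets off. AKT also keeps FOXO factors out of the nucleus, so that FOXO target genes are known to come on when the pathway is blocked. GSK126 inhibits the methyltransferase EZH2, the catalytic subunit of Polycomb repressive complex 2 (PRC2), which marks silent genes on histone H3.

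The values are read counts that the authors normalized with a size factor for each library, here called normalized counts. The 6 libraries held between 18003242 and 30466479 reads. They differed in ways that the treatment labels do not give. Combination library 1 was the shallowest, yet it had a read for 21669 genes, against 15504 to 17338 in the other 5, and it held a read for 89% of the genes that are rare elsewhere, against at most 10.6% in those 5. Reads from spike-in RNA, which is meant to be added in a fixed amount, made up 1.33%, 0.384% and 0.650% with GSK126 and 1.72%, 1.68% and 1.35% in the combination (exact permutation test, two-sided, p = 0.1, the smallest p that 3 against 3 libraries allow). Whether these libraries received equal amounts was not tested. All 12 libraries were also sorted by the proportions among the spike-ins into 3 clusters, a number set beforehand. GSK126 library 1 stood alone, and GSK126 libraries 2 and 3 shared a cluster with combination library 1. Combination libraries 2 and 3 shared theirs with the libraries without GSK126. The spread within the GSK126 group, a median SD of 0.424 on the log2 scale, was wider than the 0.198 of the combination group. All 9 SKBR3 markers, among them ERBB2 (149368, 123876 and 88082 with GSK126, 151017, 185485 and 180505 in the combination), were expressed in all 6 libraries. Among markers of other cell types, those of leukocytes summed to 384 to 534 with GSK126 and 675 to 826 in the combination, most of it CD68, a lysosomal protein gene that many cell types express, and 3 of the 10 leukocyte markers stayed under 10 in every library. Fibroblast markers summed to 339.5 to 479 and 299 to 396, and endothelial markers, most of it CDH5, to 945 to 1568 and 787 to 1140. No marker was at 0 in all 6 libraries. Combination library 1, with a read for 89% of the genes that are rare elsewhere, can by itself lift a marker off 0. The part of these markers in the results was not tested.

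Of 13761 genes tested, 944 (6.86%) changed when lapatinib was added (limma, Benjamini-Hochberg adjusted p under 0.05). Of these, 354 (2.57%) rose and 590 (4.29%) fell. The fall was at least 4-fold for 153 genes and the rise for 58. In all 944 the 3 libraries of one group lay apart from the 3 of the other, as they did in 30.1% of all genes tested. The median change over all genes was 0.03 on the log2 scale, so these are changes relative to the typical gene. The scale matters for the rises. When the libraries were set to equal spike-in totals, the median of all genes moved by -1.04 and 2 genes rose against 425 that fell. That move is nearly the same for every gene, so the 590 genes that fell had to stay below 0, and their direction is not tested by it. Of the 354 that rose, 256 still lay above 0. With the spike-in proportions as a term in a fit over 12 libraries, the contrast rests on combination library 1 against GSK126 libraries 2 and 3. The groups lay apart in all 944 genes, so all 354 and all 590 had to keep their direction there. Where a rise is given below, it is a rise relative to other genes. Without combination library 1 the calls were 70 and 257, and without both libraries numbered 1 they were 366 and 614.

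**Figure D1:**
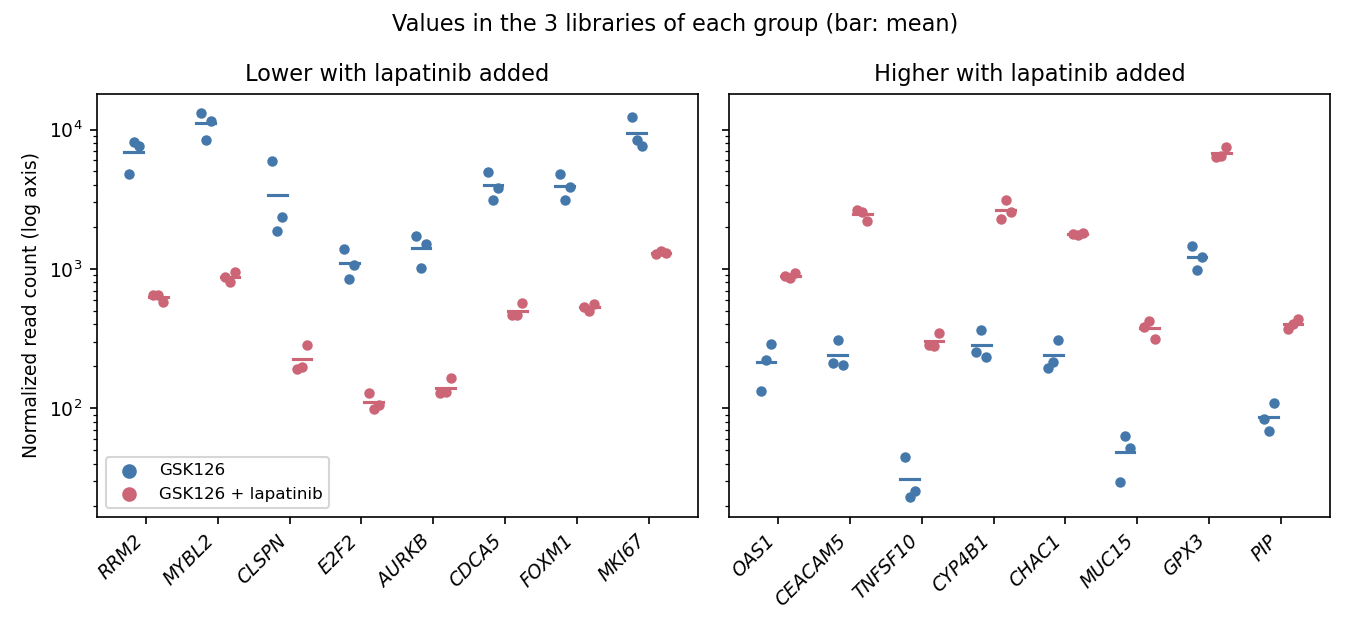
Normalized counts (log axis) of 8 genes that fell (left) and 8 that rose (right), one point for each of the 3 libraries of GSK126 (blue) and of GSK126 with lapatinib (red), with a bar at the group mean. In each of the 16 genes the 2 groups lie apart, as in CEACAM5, where GSK126 libraries lie at 204 to 309 and combination libraries at 2211 to 2655.

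The genes that copy DNA fell together. Of 39 DNA replication genes tested, 33 fell and none rose, against 4.29% of all genes falling, and their median change was -1.68 on the log2 scale. All 39 lay below 0. RRM2 encodes the small subunit of ribonucleotide reductase, which makes the building blocks of DNA. Its normalized counts were 4774, 8182 and 7641 with GSK126 and 648, 646 and 580.2 after lapatinib was added. Every combination library lay far below every GSK126 library, and the log2 change was -3.42 ± 0.24 (SE, adjusted p = 0.000381). CLSPN, whose product claspin stabilizes replication forks, went from 5943, 1882 and 2366 to 190.4, 197 and 286, a change of -3.75 ± 0.40. GSK126 library 1 was the highest for CLSPN, and the other 2 libraries of its group still lay well above all 3 of the combination. TYMS, which makes thymidylate, went from 2709, 3617 and 4659 to 492, 555 and 488 (-2.81 ± 0.23). CDC45, part of the helicase that opens the double helix, went from 1230.0, 1009 and 1122 to 158, 165 and 180.2 (-2.73 ± 0.19), with little spread in either group. MCM10, which helps start that helicase, stood at 669, 893 and 653 and then at 131, 122 and 113 (-2.58 ± 0.22). The 6 replication genes that did not pass were CHAF1B, DNA2, MCM3, POLA1, PRIM1 and RFC3. RFC3, a clamp loader subunit, is an example: its GSK126 libraries ran from 440 to 1508, wider than the gap to the combination at 401 to 448. Leaving out 1 library at a time left 26 to 38 replication genes called.

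Promoter sequences were read for these genes because members of the list moved together. RefSeq windows of the 250 bases before the start, matched by symbol, were at hand for 34 of the 39 replication genes and for 10022 of the 13761 genes tested. Searched on both strands, the E2F letters TTTCCCGC or TTTGGCGC were in 12 of the 34 (35.3%) and in 3.17% of all the promoters. Among all genes called, they were in 8.31% of the promoters of those that fell and in 1.17% of those that rose. The 80 bases just before the start are shown for the genes of the replication and E2F lists with the largest falls that held a match there, 5′ to 3′ on the gene's strand, with the E2F letters or their reverse complement in capitals. The genome build is GRCh38.p14, E2F2 being at chr1:23531234-23531313, minus strand, GINS2 at chr16:85688955-85689034, minus strand, and TYMS at chr18:657573-657652, plus strand.
E2F2: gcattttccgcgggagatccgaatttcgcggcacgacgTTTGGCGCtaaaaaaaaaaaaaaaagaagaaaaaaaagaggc
GINS2: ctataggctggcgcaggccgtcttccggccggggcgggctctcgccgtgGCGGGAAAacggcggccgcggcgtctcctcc
TYMS: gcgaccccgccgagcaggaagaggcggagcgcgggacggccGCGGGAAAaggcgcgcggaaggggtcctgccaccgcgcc
In these 3 promoters the match began 42, 31 and 39 bases before the start. GINS2, a subunit of the same helicase as CDC45, went from 999, 512 and 663 to 89.6, 75.2 and 132 (-2.84 ± 0.31). A match is a description of the letters and no measure of binding.

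Genes of mitosis fell with those of replication. Of 34 tested, 32 fell and none rose, against 4.29% of all genes falling, with a median change of -2.03. MKI67, the proliferation marker Ki-67, went from 12236, 8349 and 7587 to 1283, 1344 and 1307, a change of -2.81 ± 0.22 (limma, adjusted p = 0.000388). The combination libraries lay close together, far below the lowest GSK126 library. AURKB, a kinase that corrects chromosome attachment, went from 1713, 1014 and 1506 to 128, 130.2 and 165 (-3.29 ± 0.25). UBE2C, which helps destroy mitotic cyclins, went from 3854, 3786 and 3555 to 726, 744 and 761 (-2.32 ± 0.17). PLK1, a kinase that drives entry into mitosis, went from 1994, 2901 and 3636 to 517, 479.7 and 484 (-2.48 ± 0.24), and KIF11, a motor that separates the spindle poles, from 992, 1281 and 843 to 227, 265 and 215 (-2.12 ± 0.22). The kinetochore genes SPC25 (-2.97 ± 0.28) and SKA1 (-2.98 ± 0.25) and the cohesion gene CDCA5 (-2.96 ± 0.22) were among the 15 largest falls. ANLN and KIF20A, both needed to divide the cell, were the 2 mitotic genes that did not pass (adjusted p = 0.0502 and 0.134). In both, GSK126 library 1 was far below the other 2 libraries of its group. With 1 library left out at a time, 26 to 34 mitotic genes were called.

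The letters TTTGAA, known as the cell cycle genes homology region (CHR), were in 14 of 28 mitotic promoters (50%) and in 8.16% of all promoters, whereas the E2F letters were in 1 of the 28 (3.57%). The DNA replication list had the reverse pattern, with TTTGAA in 1 of 34 (2.94%). Among all genes called, TTTGAA was in 16.2% of the promoters of those that fell and in 9.38% of those that rose. The mitotic genes with the largest falls and a match in the last 80 bases are shown with TTTGAA or its reverse complement in capitals (GRCh38.p14, MKI67 at chr10:128126424-128126503, minus strand, PLK1 at chr16:23678809-23678888, plus strand, and KIF11 at chr10:92593050-92593129, plus strand).
MKI67: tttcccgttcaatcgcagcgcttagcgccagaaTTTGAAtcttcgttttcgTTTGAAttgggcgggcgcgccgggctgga
PLK1: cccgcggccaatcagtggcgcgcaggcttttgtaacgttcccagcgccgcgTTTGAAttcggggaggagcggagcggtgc
KIF11: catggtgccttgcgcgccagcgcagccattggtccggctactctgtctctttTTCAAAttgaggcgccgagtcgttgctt
The match nearest the start began 29 bases before it in MKI67, 29 in PLK1 and 28 in KIF11, and MKI67 held 2 matches.

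Regulators of these programmes fell too. Of 16 genes of the E2F, RB and MYBL2 group, 6 fell (E2F1, E2F2, E2F3, E2F7, MYBL2 and RBL1) and none rose, against 4.29% of all genes falling. MYBL2, which switches on mitotic genes with the MuvB complex, went from 13193, 8392 and 11603 to 875, 811 and 948 (-3.63 ± 0.22). FOXM1, the other main activator of mitotic genes, went from 4797, 3115 and 3899.9 to 534, 502 and 563 (-2.86 ± 0.21). The activator E2F2 went from 1380.0, 849.8 and 1062 to 129, 99.5 and 105 (-3.27 ± 0.24) and E2F1 from 1749, 1384 and 2169 to 351, 301 and 335 (-2.40 ± 0.22). E2F7 had an adjusted p of 0.0532 without GSK126 library 3. RB1, RBL2, E2F4 and the MuvB members LIN9 and LIN54, which take part in the repressing complexes, did not pass. RBL1, another RB relative, was among those that fell. Of 8 genes for G1 cyclins and their partners, CCNE1, CCNE2 and CDC25A fell. CDC25A, a phosphatase that activates CDK2, went from 1279, 960.2 and 986 to 249, 247 and 248 (-2.10 ± 0.20). CCNE1 went from 928, 1093 and 1219 to 502, 478 and 468 (-1.15 ± 0.19, adjusted p = 0.00915), and its adjusted p was 0.0591, 0.0718 and 0.0558 without combination library 1, 2 or 3. CCNE2 lost the call without GSK126 library 3 or any 1 combination library (adjusted p 0.0591 to 0.135). CCND1, the cyclin D1 gene, had 9773, 6787 and 6839.8 with GSK126 and 4580.1, 4358 and 4988 in the combination. The groups did not overlap, but the change of -0.73 ± 0.21 did not pass (adjusted p = 0.0714). Of 7 CDK inhibitor genes tested, 3 lay above 0 and none was called as higher, against 2.57% of all genes rising. That count is near this share, and nothing is read from it. Without GSK126 library 2, 1 of the 7 was called as higher. CDKN1A (p21) stood at 624, 615 and 1006 and 571, 606 and 549, where the highest combination library lay just under the lowest GSK126 library and the change did not pass (adjusted p = 0.418). The gene CDKN2D (p19), which E2F factors are known to activate, fell from 479, 241 and 319 to 61.0, 53.4 and 84.8 (-2.33 ± 0.32).

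**Figure D2:**
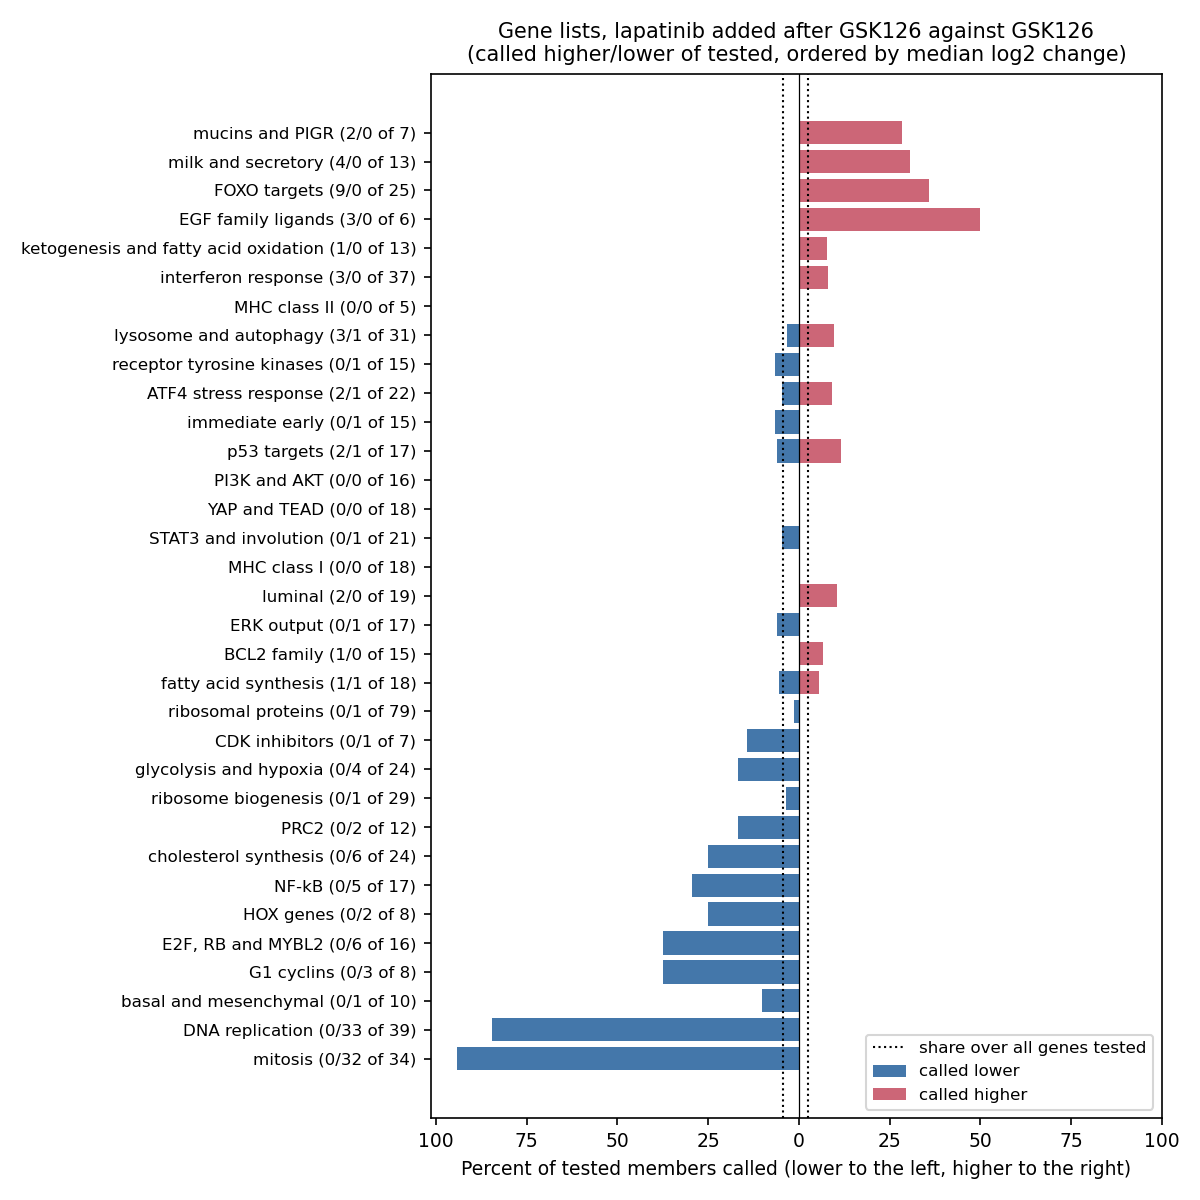
Share of tested members of each gene list that fell (blue, to the left) or rose (red, to the right) when lapatinib was added to GSK126, in percent, with the counts beside each name and dotted lines at the 4.29% and 2.57% of all genes tested. Mitosis (32 of 34) and DNA replication (33 of 39) reach farthest to the left, and the FOXO targets have the most members that rose, 9 of 25.

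Among genes that rose, FOXO targets formed the group with the most calls. Of 25 tested, 9 rose and none fell, against 2.57% of all genes rising, with a median change of 0.79, which was -0.253 with no gene called at equal spike-in totals. FBXO32, an F-box protein of muscle wasting, went from 4812, 5010.4 and 5234 to 14716, 14637 and 13637 (1.51 ± 0.17, limma adjusted p = 0.00159). PIK3IP1, a membrane inhibitor of PI3K, went from 762, 930.3 and 1212 to 2668, 2498 and 2634 (1.45 ± 0.21). TNFSF10, the death ligand TRAIL, went from 44.9, 23.0 and 25.6 to 285, 282 and 349 (3.31 ± 0.32). In these 3 genes no library of one group reached the other. The transcriptional repressor gene BCL6 was at 285, 361 and 365 and then at 764, 827 and 669 (1.16 ± 0.20). TXNIP, KLHL24, PDK4, FOXO4 and the catalase gene CAT were the others that rose. The list rested on single libraries: with 1 library left out, between 3 and 15 of its members were called, and BCL6 had an adjusted p of 0.0813 without combination library 1 and 0.102 without combination library 2. BMF, a BCL2 family member that promotes cell death, was the 1 gene of 15 in its family to rise, from 1383, 1996 and 2510.3 to 4995, 4309 and 4101 (1.22 ± 0.24, adjusted p = 0.0204). Its adjusted p was 0.109, 0.0988 and 0.0637 without combination library 1, 2 or 3. BCL2L11 (BIM), a known FOXO target in the same family, did not pass.

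Some genes for secreted and surface glycoproteins of gland epithelium rose. CEACAM5, a cell adhesion glycoprotein, went from 210.3, 309 and 204 to 2655, 2568 and 2211, a change of 3.38 ± 0.22 (limma, adjusted p = 0.000381), and CEACAM6 from 1985, 2628 and 1799 to 6998, 7137 and 6265 (1.69 ± 0.20). CEACAM1, the third tested member of the family, stayed under 40 in every library and did not pass. Of 7 genes for mucins and the immunoglobulin transporter PIGR, MUC15 and MUC16 rose. MUC16, the CA125 antigen, went from 2028, 2072 and 2462 to 7764, 6789 and 7313 (1.74 ± 0.18), and MUC15 from 29.6, 63.7 and 52.2 to 385, 426 and 315 (2.98 ± 0.32). MUC1 was at 3697, 1489 and 2296 and 4817, 4570.4 and 6483 and did not pass (adjusted p = 0.0667). Of 13 milk and secretory genes, 4 rose and none fell, against 2.57% of all genes rising, with a median of 0.91 (-0.131 at equal spike-in totals). SCGB2A2, mammaglobin, went from 571, 461 and 612 to 2000.1, 2188 and 2369 (2.00 ± 0.20), and PIP, a secreted protein of apocrine glands, from 84.3, 69.0 and 109 to 369.6, 401 and 439 (2.21 ± 0.25). ELF5, a factor that drives alveolar differentiation, went from 118, 198 and 162 to 398, 404 and 318 (1.25 ± 0.26), with an adjusted p of 0.058 to 0.138 without GSK126 library 3 or any 1 combination library. The fourth, SCGB1D2, had 77.8, 18.4 and 23.0 and 117, 128 and 186, and it lost its call without any 1 library except GSK126 library 1 (adjusted p 0.0573 to 0.169). Its GSK126 values lay wide apart. Of 19 luminal genes XBP1 and EHF rose, against 2.57% of all genes. XBP1, a factor of secretory cells, went from 6862, 10545 and 8859 to 20899, 22423 and 19739 (1.28 ± 0.21). XBP1 and EHF lost the call without combination library 1 or 2 (adjusted p 0.0563 to 0.0878), and EHF without GSK126 library 3 (0.0871). GATA3, with 4987, 1835 and 2151 and 2144, 2285 and 2991, overlapped fully between the groups.

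Some genes of transport and metabolism rose. The sodium-glucose transporter SLC5A1 had 0, 3.83 and 3.54 with GSK126, a few reads at most, and 63.5, 43.7 and 48.2 in the combination (4.22 ± 0.72, a size that depends on the pseudocount). It kept its call in the 17 alternative analyses that tested it, equal spike-in totals included. CYP4B1 (252, 364 and 235, then 2278, 3104 and 2554) and CYP1A1 (11.0, 39.9 and 48.6, then 334, 366 and 309), which encode oxidizing enzymes of the P450 family, rose by 3.23 ± 0.23 and 3.54 ± 0.50. CHAC1, which degrades glutathione, went from 195, 216 and 308 to 1788, 1747 and 1821 (2.92 ± 0.22, limma adjusted p = 0.000381), the combination libraries agreeing closely. It and the cystine transporter SLC7A11 (182, 183 and 131, then 359.7, 377 and 445, adjusted p = 0.0141) were the 2 genes of 22 in the ATF4 stress list to rise, and PHGDH, the first enzyme of serine synthesis, was the 1 to fall, from 2569.5, 2033 and 2471 to 1037, 1120.3 and 1325 (-1.02 ± 0.20). SLC7A11 and PHGDH each lost the call when any 1 of GSK126 library 3 or the combination libraries was left out, with adjusted p from 0.0501 to 0.0846 and from 0.052 to 0.121. Among all genes tested, 2.57% rose and 4.29% fell.

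Of 37 interferon genes tested, 3 rose (OAS1, IFI6 and IFIT2), against 2.57% of all genes, none fell, and 27 lay above 0, with a median of 0.50 against -0.539 at equal spike-in totals. OAS1, a sensor of double-stranded RNA, went from 133, 222 and 291 to 896, 864 and 929 (2.12 ± 0.29). IFI6 and IFIT2 each lost the call without GSK126 library 3 (adjusted p 0.0825 and 0.106) and without each combination library (0.0596 to 0.101 and 0.106 to 0.163). None of 18 MHC class I genes and none of 5 MHC class II genes was called, and the immunoproteasome subunit PSMB8 had 2574, 1734 and 2408 and 1711, 1988 and 2224, overlapping throughout. By contrast 5 of 17 NF-kB target genes fell (RELB, ICAM1, CXCL1, CCL2 and TNF), against 4.29% of all genes, with a median of -0.59. ICAM1, a leukocyte adhesion molecule, went from 360.3, 416 and 478 to 101, 104 and 133 (-1.89 ± 0.23). The cytokine gene TNF went from 108, 142 and 147 to 39.8, 53.4 and 52.0 (-1.43 ± 0.28), and the chemokine gene CCL2 from 278, 451 and 560.4 to 172, 153 and 165 (-1.34 ± 0.28). Only ICAM1 of these 3 kept its call without each library in turn. TNF and CCL2 lost it without GSK126 library 3 (adjusted p 0.0813 and 0.0933) and without any combination library. Leaving out 1 library left 1 to 6 NF-kB genes called.

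Of 24 cholesterol genes, 6 fell, none rose, and 21 lay below 0, with a median of -0.58, while 4.29% of all genes fell and 2.57% rose. Leaving out 1 library left 3 to 8 of them called as lower, with 3 without combination library 1 and 3 without combination library 2. ACAT2, an early enzyme of the mevalonate pathway, went from 1735, 1792 and 1864 to 309.9, 357 and 479 (-2.26 ± 0.21, limma adjusted p = 0.000954), and INSIG1, which retains the SREBP activator in the endoplasmic reticulum, from 898, 947 and 827 to 331, 352 and 314 (-1.42 ± 0.18). Both genes had tight replicates and kept their call under all 22 alternatives. Of 18 fatty acid synthesis genes, FADS2 fell, from 88.7, 90.5 and 163 to 16.2, 5.66 and 12.5 (-3.25 ± 0.47), and THRSP rose, from 20.8, 54.5 and 46.0 to 112, 107 and 114 (adjusted p = 0.0499, and from 0.109 to 0.188 without GSK126 library 3 or any 1 combination library). These counts of 1 of 18 in each direction are near the shares over all genes, and nothing is read from them. Of 24 glycolysis and hypoxia genes, 4 fell (ALDOC, ENO2, PKM and ADM), PKM, pyruvate kinase, from 37507, 31165 and 38096 to 16779.6, 17234 and 19674 (-0.99 ± 0.19). Each of the 4 lost its call when GSK126 library 3 or any 1 of the combination libraries was left out, PKM with adjusted p from 0.058 to 0.142.

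Of 12 PRC2 genes, EZH2 and PHF19 fell, against 4.29% of all genes tested. EZH2, the target of GSK126, was at 1202, 1542 and 1407 with GSK126 and at 505, 583 and 569.6 with lapatinib added (-1.32 ± 0.19, limma adjusted p = 0.00498), with tight replicates in both groups, and EZH2 is itself a known E2F target. At equal spike-in totals its adjusted p was 0.0562. PHF19, an accessory subunit that guides PRC2 to chromatin, went from 239, 165 and 246 to 54.8, 34.8 and 57.8 (-2.13 ± 0.31). SUZ12 and EED, the core partners of EZH2, did not pass. Of 8 HOX genes tested HOXC11 and HOXC8 fell. HOXC11 went from 398, 304 and 414 to 189, 157 and 172 (-1.09 ± 0.22), and both lost the call without GSK126 library 3 or any 1 combination library (adjusted p from 0.0688 to 0.172). KRT6B, a stress keratin and the 1 gene called of 10 basal and mesenchymal genes, went from 287, 183 and 241 to 44.8, 51.8 and 65.5 (-2.11 ± 0.28). VIM, vimentin, chosen after its values were seen, did not pass, but its libraries disagreed: it had 276, 114 and 157 with GSK126 and 213, 6.47 and 7.71 in the combination, where combination library 1 alone stayed at the level of the GSK126 group.

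The receptors and the ERK pathway that lapatinib acts on were read next. ERBB2 changed by 0.54 ± 0.25 and ERBB3, its signalling partner, by 0.62 ± 0.24 on the log2 scale, and neither passed (limma, adjusted p = 0.227 and 0.155). EGFR overlapped between the groups, with 761, 2230.2 and 1332 and 1795, 1624 and 1164. Among 15 receptor tyrosine kinases FGFR4 fell, from 1244, 965 and 1359 to 543, 566 and 522 (-1.11 ± 0.20), and no other was called. It lost the call without GSK126 library 3 (adjusted p 0.0545) and without each combination library (0.0707 to 0.0815). Of 6 EGF family ligands, EGF, BTC and NRG2 rose, against 2.57% of all genes. EGF went from 245, 488 and 274 to 787, 839 and 626 (1.22 ± 0.29) and NRG2, a ligand of ERBB3 and ERBB4, from 334, 193 and 295 to 508, 535 and 627 (1.05 ± 0.25). The ligand betacellulin, BTC, was scarce at 8.76, 13.8 and 3.54 and reached 48.5, 41.3 and 39.5. All 3 ligands lost the call without GSK126 library 3 or any 1 combination library, with adjusted p from 0.0774 to 0.185. Of 17 ERK output genes, which report the activity of the cascade, ETV4 alone fell and none rose, with a median of -0.16. These counts of 1 of 15 receptors and 1 of 17 output genes are near the 4.29% of all genes that fell, and nothing is read from them. ETV4, a factor of the ETS family, went from 157, 186 and 239.5 to 92.1, 72.8 and 94.5 (-1.14 ± 0.26, adjusted p = 0.0367), and its adjusted p was 0.103 to 0.204 without GSK126 library 3 or any 1 combination library. DUSP6, the phosphatase that ERK induces against itself, was low and overlapped, with 17.5, 16.1 and 26.5 and 29.9, 18.6 and 20.2. Of 15 immediate early genes KLF2 fell, from 311, 192 and 268 to 83.4, 93.8 and 81.9 (-1.54 ± 0.26), with adjusted p 0.0548 without GSK126 library 3 and 0.0604 without combination library 1. That count of 1 of 15 is also near 4.29%, and nothing is read from it. MYC, at 1109.5, 4653 and 4277 and 3884, 3688 and 3118, did not pass, GSK126 library 1 lying far below the other 5 libraries.

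To see what GSK126 altered in the response, the same genes were read in the 6 libraries without it, which are not shared with the comparison above. There lapatinib against DMSO raised 1949 of 14179 genes (13.7%) and lowered 2024 (14.3%), in a fit over all 12 libraries. Of the 354 genes that rose after GSK126, 299 (84.5%) also rose there, which is 15.3% of the genes that rose without GSK126. Of the 590 that fell, 558 (94.6%) also fell there, 27.6% of the genes that fell without GSK126. The 354 and 590 come from the fit over 6 libraries, and the fit over 12 libraries called 1202 rises and 1377 falls after GSK126, so these shares set side by side calls from unlike fits. Genes called in opposite directions were DAPK2 and NABP1, which rose after GSK126 and fell without it. The median change of the genes that rose was 1.32 after GSK126 and 1.28 without it, and of those that fell -1.58 and -1.62. Across the 13761 genes, which are not independent replicates, the 2 responses had a Pearson r of 0.771 and a Spearman rho of 0.769. Replication genes had a median of -1.97 and mitotic genes of -2.25 without GSK126, where all 39 and all 34 fell. MKI67 changed by -2.90 there, RRM2 by -3.90 and MYBL2 by -3.93. For MKI67 the difference of the 2 responses was 0.09 ± 0.23, with a 95% interval from -0.43 to 0.61. For RRM2 it was 0.48 and for MYBL2 0.29, with intervals that also held 0, as did those of TYMS, CLSPN, AURKB and FOXM1. MCM10 (1.02, 0.41 to 1.63), CDC45 (0.71, 0.18 to 1.24) and UBE2C (0.54, 0.16 to 0.91) fell less after GSK126, with intervals above 0. These intervals are unadjusted, and no member of the replication and mitosis lists was called for the difference.

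**Figure D3:**
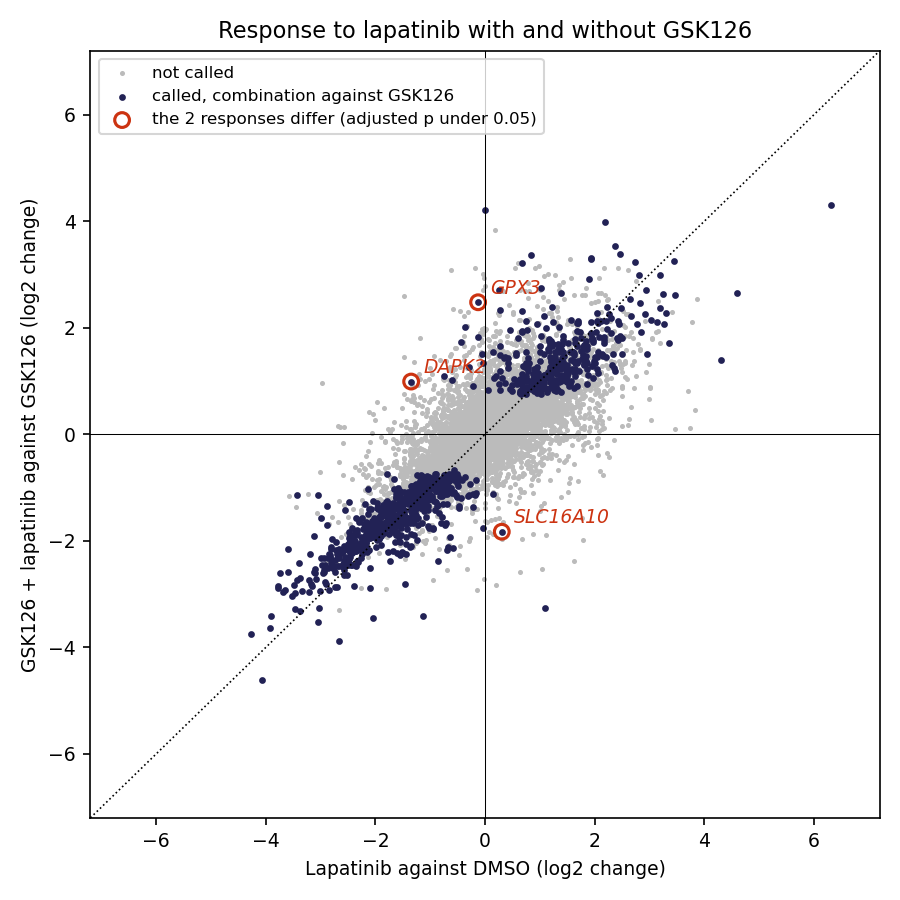
Each of the 13761 genes by its log2 change with lapatinib against DMSO (horizontal axis) and with lapatinib added to GSK126 (vertical axis), where dark points are the 944 genes called in the second and the dotted line marks equal changes. The called genes lie mostly in the lower left and the upper right, and red rings mark GPX3, DAPK2 and SLC16A10, the genes whose 2 responses differed.

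The test of the difference itself, lapatinib after GSK126 minus lapatinib after DMSO, called 3 of 14179 genes (0.0212%), while 836 had an unadjusted p under 0.05. edgeR also called 3 and DESeq2 115. GPX3, an extracellular glutathione peroxidase, had the largest departure of the 3. It was at 1468, 983 and 1215 with GSK126 and at 6347, 6420.4 and 7466 with lapatinib added, a change of 2.48 ± 0.21. Without GSK126 it was at 651, 511 and 473 with DMSO and 544, 477 and 465 with lapatinib, where it did not pass (-0.13). The difference was 2.61 ± 0.24 (limma, adjusted p = 0.00138), and all 3 libraries of the combination lay above all 9 others. It was called in 24 of 25 alternative analyses, keeping the call without any 1 library (highest adjusted p 0.0112), and at equal spike-in totals its difference was 2.10 with an adjusted p of 0.932. DAPK2, a kinase linked to cell death and autophagy, went from 109.5, 99.7 and 134 to 207, 212 and 266 after GSK126 and from 74.8, 51.4 and 59.8 to 25.5, 24.5 and 20.6 without it, a difference of 2.34 ± 0.33. SLC16A10, a transporter of aromatic amino acids, went from 77.8, 101 and 98.1 to 31.1, 25.1 and 20.2 after GSK126 and from 219, 210.5 and 192 to 268, 226 and 277 without it, a difference of -2.13 ± 0.30. DAPK2's rise after GSK126, in the fit over 6 libraries, lost its call without GSK126 library 3 (adjusted p 0.0702), without each combination library (0.153 to 0.189) and with both libraries numbered 1 left out (0.0725). The fall of SLC16A10 there lost its call without GSK126 library 3 (0.0625) and without combination library 2 or 3 (0.0709 and 0.0578). For the difference of both genes the adjusted p was 0.0466 but their calls did not last when 1 of the 12 libraries was left out. DAPK2 kept its call only without GSK126 library 1 and lost it in the 11 other cases, and SLC16A10 lost its call in 10 cases and kept it without GSK126 library 1 or combination library 1, with adjusted p up to 0.253 for each.

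Several genes of the ERK pathway had large differences that did not pass. ETV4 fell by 3.44 on the log2 scale without GSK126, from 159, 209 and 186 to 21.5, 10.6 and 17.8, and by 1.14 after GSK126. The difference was 2.29 ± 0.39 (limma, adjusted p = 0.102). EGR1, an immediate early gene chosen after its values were seen, went from 168, 196 and 179 to 67.6, 67.1 and 63.8 without GSK126 (-1.44), and its libraries overlapped after GSK126, at 315, 258 and 274 and 306, 324 and 230.3 (difference 1.45 ± 0.26, adjusted p = 0.102). CCND1 fell from 10158, 8816 and 9236 to 3508, 3331 and 3353 without GSK126, and its difference of 0.74 ± 0.21 had an adjusted p of 0.397. As a list, ERK output had a median of -1.12 with 7 of 17 falling without GSK126, and -0.16 with 1 falling after it, and immediate early genes -0.61 with 7 of 15 and 0.18 with 1. The counts without GSK126 come from the fit over 12 libraries and those after it from the fit over 6. Over all genes tested, 14.3% fell in the first and 4.29% in the second. The counts of 1 after GSK126 are near the latter share, and nothing is read from them. In the fit over 12 libraries, ERK output after GSK126 had 2 genes lower and 1 higher, and the immediate early list 3 lower and 0 higher. That fit called 1377 of 14179 genes lower and 1202 higher after GSK126. No member of either list was called for the difference, the smallest adjusted p being 0.102 in both. FGFR4 showed the converse, with 2618, 2495 and 2111 and 2799.7, 2683 and 2457 without GSK126 (0.14) and a fall after GSK126 (difference -1.25 ± 0.21, adjusted p = 0.102). SLC7A11 (1.55 ± 0.28) had the same adjusted p. FADS2, which was low in the combination, had a difference of -4.34 that did not pass, with an unadjusted 95% interval from -6.34 to -2.35. SLC5A1 was listed at 0 in all 6 libraries without GSK126.

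**Figure D4:**
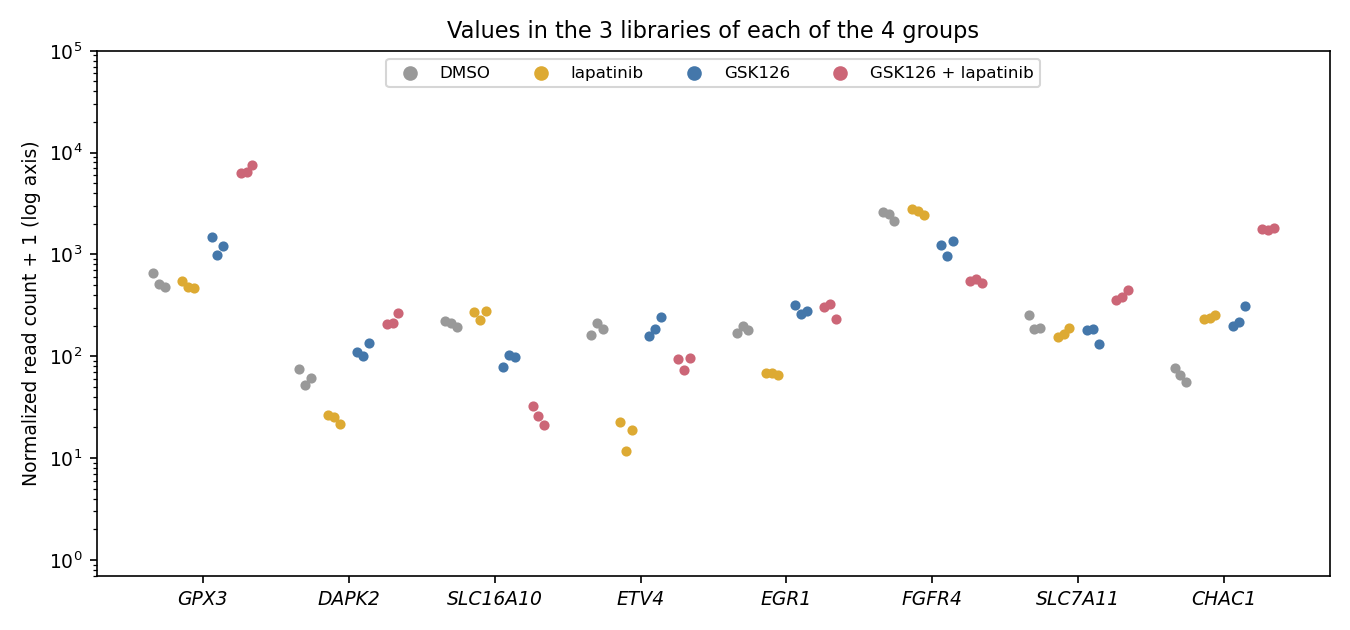
Normalized counts plus 1 (log axis) of 8 genes in the 3 libraries of each of the 4 groups, DMSO (grey), lapatinib (yellow), GSK126 (blue) and GSK126 with lapatinib (red). GPX3 is highest in the combination, at 6347 to 7466, and ETV4 is lowest with lapatinib alone, at 10.6 to 21.5.

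None of 16 PI3K and AKT genes and none of 18 YAP and TEAD genes was called, with medians of 0.10 and 0.06. Over all genes tested, 2.57% rose and 4.29% fell. The counts called in the STAT3, ribosome biogenesis and ribosomal protein lists below lie near or under the latter share, and nothing is read from them. Of 21 STAT3 and involution genes SERPINA3, an acute phase protease inhibitor, fell, from 537, 724 and 765 to 301, 342 and 353, while STAT3 itself (15188, 12132 and 11565, then 11581, 11397 and 11575) did not pass. SERPINA3 lost the call without GSK126 library 3 or any 1 combination library (adjusted p 0.0913 to 0.147). Of 17 p53 targets TP53INP1 and GDF15 rose and AEN fell. TP53INP1, which promotes autophagy and cell death, went from 76.7, 119 and 74.2 to 352, 299 and 256 (1.76 ± 0.27, limma adjusted p 0.053 without combination library 1). GDF15 and AEN lost the call without each combination library (0.0874 to 0.228), and AEN also without GSK126 library 3 (0.0825). Of 31 lysosome and autophagy genes NBR1, GABARAPL1 and MAP1LC3B, whose products carry cargo into autophagosomes or coat them, rose, and GLA, a lysosomal galactosidase, fell. GLA lost its call without GSK126 library 3 (limma, adjusted p 0.0529) and without each combination library (0.0671 to 0.0941). NBR1 went from 904, 1047 and 917 to 1985, 2174 and 1772 (1.05 ± 0.18) and GABARAPL1 from 667, 859.7 and 925 to 1637, 1767 and 1686 (1.07 ± 0.20). MAP1LC3B, at 589, 667 and 569 and 1011, 1074 and 983, changed sign at equal spike-in totals (-0.29). The calls of these autophagy genes were lost without combination library 1 or 2 (adjusted p from 0.0813 to 0.261), and those of GABARAPL1 and MAP1LC3B without combination library 3 as well (0.072 and 0.155). MAP1LC3B also lost its call without GSK126 library 3 (0.102). Of 29 ribosome biogenesis genes 26 lay below 0 and MYBBP1A fell. Of 79 ribosomal protein genes 76 lay below 0, with a median of -0.33, and RPL3L alone fell. MYBBP1A and RPL3L lost the call without GSK126 library 3 or combination library 1 or 3 (adjusted p 0.0782 to 0.148), MYBBP1A also without combination library 2 (0.169). That median was 0.0998 with both libraries numbered 1 left out. Among the largest changes outside the lists, KRT23 (keratin 23) went from 78.9, 94.3 and 59.2 to 429, 532 and 492 (2.65 ± 0.25), and SCEL (sciellin, an envelope protein of epithelia) from 15.3, 24.5 and 28.3 to 161, 169 and 125 (2.72 ± 0.34). The largest fitted falls were those of C2orf48 (54.8, 52.2 and 47.7, then 8.71, 0 and 0) and STC1, stanniocalcin (85.4, 52.9 and 41.5, then 17.4, 2.43 and 0). Both reached 0 in a combination library and were highest in combination library 1, and each lost its call without combination library 2 or 3 (adjusted p 0.0522 to 0.148), STC1 also without GSK126 library 2 or 3 (0.0586 and 0.141). TCF19, a cell cycle gene, fell from 1289, 1322 and 1400.1 to 166, 211 and 146 (-2.95 ± 0.21) and FAM111B from 1158, 2147 and 1192 to 200.4, 217 and 122 (-3.03 ± 0.32).

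**Figure D5:**
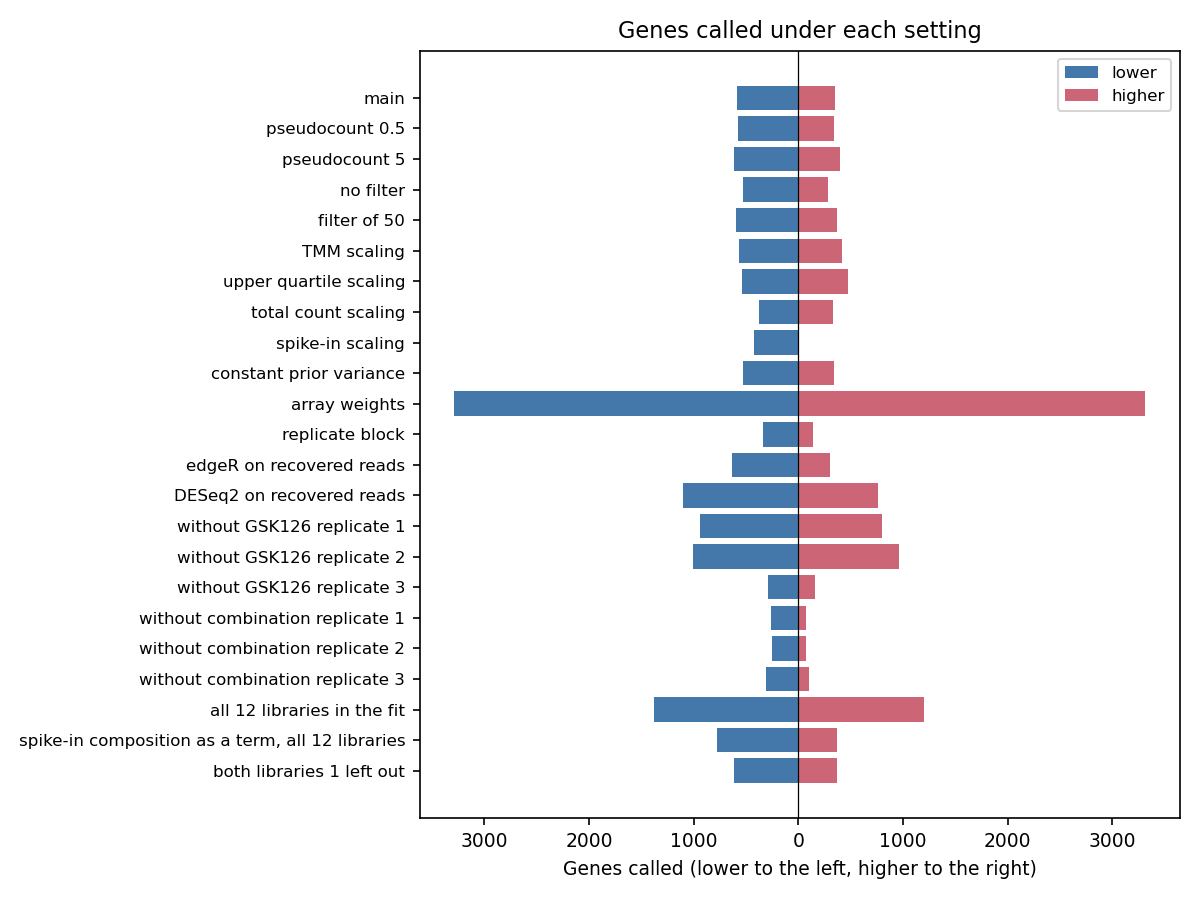
Number of genes that fell (blue, to the left) and rose (red, to the right) when lapatinib was added to GSK126, under the reported analysis (top bar, 590 and 354) and each of 22 alternatives. Scaling to the spike-in total leaves 2 rises and 425 falls, and weighting the libraries by their spread (array weights) gives the most calls, 3315 and 3288.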

How the data were processed

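Messenger RNA of SKBR3 cells was sequenced in 12 libraries, 3 in each of 4 groups taken from the sample titles. The submitters' processing notes name STAR, hg19 and DESeq2 (versions not given in the sources used here). Each deposited value is a signal, the read count of a gene scaled by the authors with a factor per library. All values (100%) were whole multiples of 1 read within 0.01, so reads were recovered, and edgeR's quasi-likelihood test on them called 937 genes. Of 22256 features, 86 were spike-ins and 22170 genes. Symbols that had become dates (27) are not named. The counter and its handling of strand and shared reads are not given in the sources used here, so values of gene families and overlapping genes could share reads.

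Testing used limma 3.58.1 (R 4.3.3) on log2(value + 1) with a trended prior variance, over the 6 libraries compared (4 residual degrees of freedom), for genes reaching 10 in 3 or more libraries. Fold changes are on this scale, which understates those of low genes. Lapatinib against DMSO and the difference of responses came from all 12 libraries (8 residual degrees of freedom). A ± gives a standard error. Alternatives were other pseudocounts, filters, scalings and tools (edgeR 4.0.16, DESeq2 1.42.0), a replicate block, library weights and leaving libraries out. Same-numbered libraries deviated with r of -0.378, 0.332 and -0.107, so the numbers were not taken to pair them. Scripts were tested on simulated data.

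Genes named were the 15 largest called changes in each direction with a mean of at least 50 and no overlap, up to 4 members per list by adjusted p, a fixed set (EZH2, ERBB2, MYC and others), and genes called for the difference. GINS2, PLK1 and KIF11 came from the promoter rule. RFC3, ANLN, KIF20A, VIM, EGR1 and NABP1 were chosen after their values were seen, and other list members appear by name to complete a count. The comparison, the members and the lists were chosen with earlier results of these data known. Lists are described by counts and medians, with no test. Promoters are RefSeq windows (GRCh38.p14, first listed start, 250 bases before it), matched by symbol because the files are on another build.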

Additional observations from a re-analysis of the deposited data

Results flagged for a closer look

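The response to lapatinib differed with GSK126 in 3 genes by the test of the difference itself (limma over 12 libraries, adjusted p under 0.05, lapatinib after GSK126 minus lapatinib after DMSO). GPX3 differed by 2.61 on the log2 scale, with a rise in 3 of 3 combination libraries over all GSK126 libraries and no call without GSK126. DAPK2 differed by 2.34, having risen after GSK126 and fallen without it. That rise lost its call without GSK126 library 3 (limma, adjusted p 0.0702), without each combination library (0.153 to 0.189) and with both libraries numbered 1 left out (0.0725). SLC16A10 differed by -2.13, having fallen after GSK126 and not having passed without it. At equal spike-in totals none of the 3 was called.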

How the results depend on the processing

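Genes that fell kept their direction under the alternatives that tested them, and those that rose did so except at equal spike-in totals, where 256 of 354 lay above 0. Much of this was fixed in advance. The groups lay apart in every called gene, so leaving libraries out, library weights or the spike-in term could not turn a direction. Equal spike-in totals move all genes downward by a like amount and could not turn a fall. Of 96 named genes called, 27 kept the call in every alternative that tested them and 69 lost it in at least 1. Of 81 named genes not called, 64 passed in at least 1. Among the 81 not called, 37 had the other sign in at least 1 alternative. At equal spike-in totals 2 genes rose and 427 were called, and 4 of the called named genes changed sign (CD68 -0.0429, DAPK2 -0.0488, GRB7 -0.0345 and MAP1LC3B -0.292). By the total count, 377 fell, and rises made up 46.5% of calls against 37.5% in the reported analysis (0.468% at equal spike-in totals). Library weights gave 3315 rises, 3288 falls and 6603 calls. DESeq2 gave 765, 1101 and 1866, and all 12 libraries in the fit 1202, 1377 and 2579. With replicate number as a block, which the labels do not tie to a shared culture, they were 139, 342 and 481. Leaving out 1 library gave 70 to 958 rises, 251 to 1005 falls and 323 to 1963 calls, the fewest calls without combination library 2, the fewest rises without combination library 1 and the most calls without GSK126 library 2. The cause was not tested.

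The difference of responses, with 3 genes called, gave 1 without a filter, 1 by the total count, 0 at equal spike-in totals (limma, 167 at an unadjusted p under 0.05), 8 with a constant prior variance, 3284 with library weights, 1 with the replicate block and 115 with DESeq2. TMM scaling gave 2 and upper quartile scaling 2. Leaving out 1 library gave 1 to 18, the most without GSK126 library 1. With 3 libraries a group and wide spread in the GSK126 group, small changes could not be resolved.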
